A study of Sus scrofa with 18 samples.

Results

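Leptin and its receptor were followed through the growth of pig backfat. The description rests on 2 genes, LEP and LEPR, chosen by their symbols in a table of 27883 assembled loci, and each symbol matched 1 locus. RNA of backfat from the thickest point of the shoulder had been sequenced in 18 libraries of castrated male Ningxiang pigs, a Chinese breed rich in fat. Each stage had 3 pigs with 1 library each, and the stages were 60 and 120 days, then 180, 240 and 300 days, and last 360 days of age, all reared under the same standard conditions with no other treatment. The 3 pigs of a stage were full sibs and the stages came from different, related litters, so age and litter cannot be told apart, and the tests below measure only the spread between full sibs.

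Leptin is a hormone that fat cells secrete into the blood, and its level is known to follow the mass of stored fat. It acts mainly on neurons of the hypothalamus, where it lowers feed intake. Its receptor belongs to the class I cytokine receptors and has no enzyme activity of its own. It works through the bound kinase JAK2 and the transcription factor STAT3, which switches on SOCS3, an inhibitor of the same pathway. In rodents and humans a long form of the receptor carries the signal, while short forms and a soluble form bind leptin outside the brain.

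LEP was locus MSTRG.10498 on chromosome 18 of the Sscrofa11.1 build (20064049 to 20123962, minus strand), with 10 transcript identifiers. This locus spanned 59914 bases, against 17205 bases for the RefSeq gene on the same build (20106867 to 20124071). It overlapped RBM28, on the plus strand, by 9455 bases, and an unnamed locus on the plus strand, MSTRG.10499, by 2601 bases. The strand setting of the counting was not given in the sources used here, so reads of the overlapping stretches cannot be assigned to one strand. Over the 18 libraries RBM28 held 17867 counts, 6.02% of those of LEP, and MSTRG.10499 held 1.11%. These are pooled shares, and most LEP counts came from older pigs. RBM28 had stage means of 1.31 to 1.54 FPKM, while LEP had only 1137, 2081 and 1457 counts at 60 days. At 120 days LEP had 964 and 1279 counts in replicates 1 and 3, and 5581 in replicate 2. With RBM28 so even over the stages, its counts were of the same order as those of LEP at 60 days, far above the pooled share. The same held for replicates 1 and 3 of 120 days. Only 9455 bases are shared, and the part of RBM28 in the LEP counts and in the changes against 60 days was not tested. LEPR was locus MSTRG.19007 on chromosome 6 (146798979 to 146895971, minus strand), with 2 transcript identifiers, and it lay close to the RefSeq gene (146802297 to 146896152). Its neighbour at higher coordinates, 78668 bases away, was LEPROT, which encodes a small membrane protein that lowers the amount of leptin receptor at the cell surface.

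The libraries held 74077094 to 84236689 counts each. Fat cell markers (11 of 12 listed were in the table) summed to between 1345 and 1884 FPKM, a count of fragments scaled to transcript length and library size. Skeletal muscle markers were high in replicate 1 at 180 days (356 FPKM summed) and replicate 2 at 120 days (184.7 FPKM), and liver markers in replicate 2 at 240 days (602 FPKM) and replicate 2 at 300 days (419 FPKM). Although all pigs were males by their description, 7 libraries had at most 12.0 CPM, counts scaled to a common library size, over 3 Y-linked genes, against at least 129.5 in the other 11. These 7 libraries were replicates 1 and 3 at 60 days, replicate 2 at 120 days, all 3 at 180 days and replicate 2 at 300 days. Replicate 3 at 360 days had 19.0% of its counts in its 10 largest loci, against 9.37% to 14.3% in the other libraries.

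LEP was low in young backfat and high from 180 days on. At 60 days it had 0.809, 1.44 and 1.002 FPKM in the 3 pigs, a mean of 1.08 ± 0.321 (SD, n = 3). At 120 days the values were 0.663, 3.51 and 0.863 FPKM, so that replicate 1 lay below the 3 pigs of 60 days, replicate 3 among them and replicate 2 above them. At 180 days they were 13.2, 7.20 and 5.84 FPKM, a mean of 8.74 ± 3.901 (SD, n = 3).

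The 3 oldest stages overlapped each other. LEP had 23.3, 18.3 and 17.4 FPKM at 240 days, a mean of 19.7 ± 3.17 (SD, n = 3). At 300 days it had 21.0, 7.19 and 16.0 FPKM, and replicate 2 lay below all other pigs of the 3 oldest stages. At 360 days it had 15.01, 16.6 and 24.1 FPKM, a mean of 18.6 ± 4.84 (SD, n = 3), and replicate 3 held the highest level of the series. From 180 days on the lowest of 12 libraries had 5.84 FPKM, and at 60 and 120 days the highest of 6 libraries had 3.51 FPKM. The order of the stage means was 240, 360, 300, 180, 120 and 60 days. Of 15 pairs of stages the ranges of LEP were apart in 10, and the neighbours in that order overlapped except 180 and 120 days. How often ranges were apart at other loci was not counted, so the number has no background beside it.

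**Figure D1:**
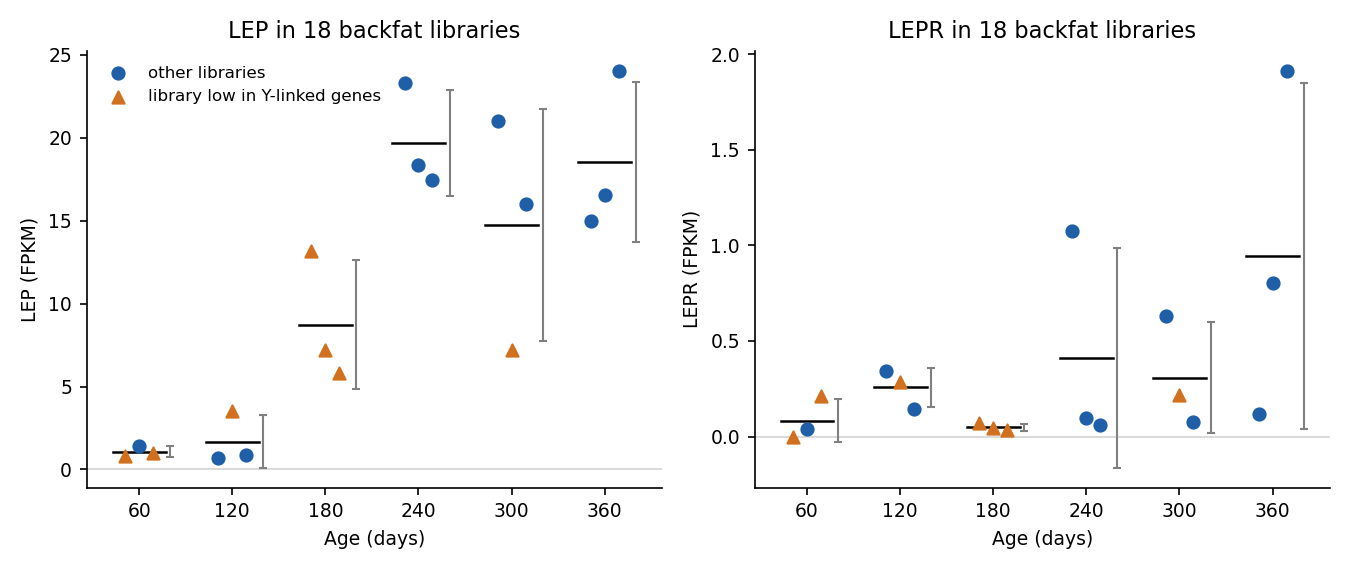
LEP (left) and LEPR (right) in FPKM in each of 18 libraries by age in days, with stage means as horizontal lines, SD of 3 libraries as grey bars, and triangles for the 7 libraries low in Y-linked genes. LEP lay at or below 3.51 FPKM in all 6 libraries of 60 and 120 days and at or above 5.84 FPKM in the other 12, while LEPR stayed under 0.5 FPKM in all but 4 libraries.

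LEP was higher at each of the 4 stages from 180 to 360 days than at 60 days. These comparisons used the quasi-likelihood test of edgeR on the counts, with p-values adjusted over all 19470 loci that reached 0.5 FPKM in at least 3 libraries, and a call asked for both an adjusted p no higher than 0.05 and a log2 fold change no smaller than 1 in either direction. The log2 fold change was 3.10 (SE 0.577, adjusted p 0.0226) at 180 days against 60 days and 4.31 (SE 0.609, adjusted p 0.00229) at 240 days against 60 days. It was 3.89 (SE 0.598, adjusted p 0.00554) at 300 days and 4.30 (SE 0.609, adjusted p 0.000809) at 360 days, a 19.7-fold difference. The share of all loci called in these comparisons was 0.616%, 2%, 1.08% and 5.11% in the same order of stages. In each of the 4, all 3 pigs of the later stage lay above all 3 pigs of 60 days, and the change of LEP was larger than that of 99.2% to 99.6% of the loci tested.

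The call at 180 against 60 days was the weakest. It was lost when any of the 3 libraries of 60 days, or replicate 1 or 3 of 180 days, was left out (log2 fold change 2.68 to 3.35, adjusted p up to 0.0885). It was also lost in a fit with a covariate for Y-linked genes (2.93, adjusted p 0.0557) and with the libraries of the compared stages alone (3.12, adjusted p 0.0506).

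Between neighbouring stages LEP was not called. At 120 against 60 days the log2 fold change was 0.72 (SE 0.536, adjusted p 0.617), where 0.231% of loci were called, and it turned to -0.42 without replicate 2 of 120 days and to -0.81 without the libraries low in Y-linked genes. The step of 180 against 120 days was larger, at 2.38 (SE 0.560, adjusted p 0.122). Without replicate 2 of 120 days it was 3.52 and called (adjusted p 0.0419), and DESeq2 called it with all libraries (adjusted p 0.00847). The later steps were 1.21 (SE 0.539, adjusted p 0.512) at 240 against 180 days, -0.42 (SE 0.532, adjusted p 1) at 300 against 240 days and 0.42 (SE 0.532, adjusted p 0.862) at 360 against 300 days.

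In these last 4 steps, from 180 against 120 days to 360 against 300 days, the quasi-likelihood fit of edgeR used here called no locus at all, so 0% was called in each. The paper reports calls in each of these steps from edgeR at the same thresholds, and it does not name the edgeR test. At an unadjusted p under 0.05 there were 2407, 1816, 735 and 1768 loci in order of age, and DESeq2 called 254, 109, 19 and 66. Limma called 0 in each of the 4 on log2(FPKM + 0.1), and 8, 0, 0 and 1 on log2(FPKM + 1). With the libraries of the compared stages alone edgeR called 9, 17, 1 and 0.

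Fitted as a straight line over age, LEP increased by 4.69 on the log2 scale per 300 days (SE 0.822, adjusted p 0.00159), where 4.79% of loci were called. The comparison of 60 days with the mean of the other 5 stages gave -3.26 (SE 0.530, adjusted p 0.00271), where 2.18% of loci were called. The test for any difference among the 6 stages, called by its adjusted p alone, included LEP (F = 17.9, adjusted p 0.00251) and 6.57% of all loci. Without the 7 libraries low in Y-linked genes the age line was 4.80 (adjusted p 0.0564) and the comparison of 60 days with the rest -2.71 (adjusted p 0.0549), both no longer called. That set has 1 library at 60 days and none at 180 days.

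On each side of the split by Y-linked genes, the libraries of 180 days or later lay above those of 60 and 120 days. Among the 7 libraries low in these genes LEP had 0.809 and 1.002 FPKM at 60 days, 3.51 at 120 days, 5.84 to 13.2 at 180 days and 7.19 at 300 days. Among the other 11 it had 1.44 FPKM at 60 days, 0.663 and 0.863 at 120 days, 17.4 to 23.3 at 240 days, 16.0 and 21.0 at 300 days and 15.01 to 24.1 at 360 days. Because all libraries of 180 days and none of 240 and 360 days were low in Y-linked genes, that split and the difference between these stages cannot be told apart.

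The summed level of the 11 fat cell markers had a narrow range. PLIN4, a coat protein of lipid droplets, was the 1 of them called at 360 against 60 days (1.04, adjusted p 0.0292), where 5.11% of all loci were called. The sum ranged from 1518 to 1822 FPKM at 60 days, from 1430 to 1622 at 120 days and from 1349 to 1758 at 180 days. From 240 days on it was 1498 to 1741, 1526 to 1853 and 1345 to 1884 FPKM in order of age. Its highest library was thus 1.4-fold above its lowest, and its Pearson correlation with LEP over the 18 libraries was 0.23. In whole tissue, fewer cells of a type and less RNA per cell cannot be told apart.

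Over the 18 libraries the summed level of progenitor and fibroblast markers was lower where LEP was high, but not within every stage. All 10 were measured, and their sum was 1784 to 2976 FPKM at 60 days, 3542 to 5073 at 120 days, 1492 to 3223 at 180 days, 818.5 to 2020 at 240 days, 1439 to 1603 at 300 days and 942 to 1744 at 360 days (r = -0.71 with LEP over 18 libraries that share stages and litters). Within stages, the library with the most LEP had the highest sum at 60, 180 and 240 days and the lowest at 120, 300 and 360 days. The collagen genes COL1A1 and COL3A1 made up most of that sum, with stage means up to 1451 and 2410 FPKM. DCN came next, with at most 128.2 FPKM, so the sum and its r mainly follow these collagen genes. At 360 against 60 days none of the 10 was called and 7 had a log2 fold change above 0, with a median of 0.37. Their part in the LEP result was not tested. Skeletal muscle markers were highest within their stage in the library with the most LEP at 60 days (12.8 FPKM), 120 days (184.7 FPKM), 180 days (356 FPKM) and 240 days (33.5 FPKM). At 300 and 360 days they were not, with at most 1.28 FPKM, and their r with LEP over the 18 libraries was -0.13. Liver markers were highest at 300 days in the library with the least LEP (419 FPKM). With the 4 libraries high in muscle or liver markers left out, LEP was still called at 180 (log2 fold change 2.68), 240 (4.35), 300 (4.22) and 360 days (4.31) against 60 days, with adjusted p from 0.000193 to 0.0142. That same set turned 120 against 60 days to -0.41 (adjusted p 0.702) and made 180 against 120 days a call, at 3.09 (adjusted p 0.036).

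LEPR was under 0.5 FPKM in 14 of 18 libraries and higher in 4, and it was counted in every library but 1, with 32 to 2023 counts. At 60 days it had 0, 0.0376 and 0.212 FPKM, and the value of 0 stood on 0 of 75123708 counts, which allows up to 0.0399 CPM (3 counts, counting error only). At 120 days it had 0.342, 0.285 and 0.141 FPKM. At 180 days all 3 pigs were low, with 0.0695, 0.0423 and 0.0317 FPKM.

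From 240 days on the pigs of a stage differed widely from each other. At 240 days LEPR had 1.07, 0.0944 and 0.0624 FPKM, a 17.2-fold gap between replicates 1 and 3. At 300 days it had 0.632, 0.216 and 0.0738 FPKM. At 360 days it had 0.120, 0.802 and 1.91 FPKM, a mean of 0.945 with a 15.9-fold gap between replicates 3 and 1. Only 4 libraries reached 0.5 FPKM, namely replicate 1 of 240 days, replicate 1 of 300 days and replicates 2 and 3 of 360 days, and they held 72.6% of the 6235 LEPR counts of the series. LEPR entered the tests through these 4 libraries.

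The stage means of LEPR ran, from high to low, 360, 240, 300, 120, 60 and 180 days. Its ranges were apart in 3 of 15 pairs of stages, namely 180 days below 120 days, and 300 and 360 days above 180 days. Neighbours in that order overlapped in every case. As for LEP, the pairs apart were not counted over all loci. The pigs of a stage varied more in LEPR than in LEP, with a pooled SD within stages (root of the mean variance) of 1.09 on the log2(FPKM + 0.1) scale for LEPR and 0.681 for LEP. Over all loci tested the median was 0.300, and 94.8% of loci for LEPR and 84.3% for LEP had a smaller SD. Among loci within 2-fold of their own mean level, 80.1% of 2867 loci varied less than LEPR and 96.2% of 2385 varied less than LEP.

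LEPR was called in none of its 12 comparisons by edgeR, and LEP in 7 of the same 12. At an unadjusted p under 0.05 LEPR passed in 4 of them, as did many of the 19470 loci tested. The 4 were 240 against 180 days (1816 loci), 360 against 60 days (5513), the line over age (5717) and any difference among stages (5043). Among pairs of stages the closest was 360 against 60 days, with a log2 fold change of 3.73 (SE 1.41, adjusted p 0.0961). DESeq2 called that step (3.75, adjusted p 0.0395), the 1 call of LEPR by any tool run, and without replicate 3 of 360 days it was 2.57 (adjusted p 0.335). The changes over 60 days were -0.72 (SE 1.33, adjusted p 0.85) at 180 days, 2.39 (SE 1.34, adjusted p 0.336) at 240 days and 2.00 (SE 1.32, adjusted p 0.476) at 300 days.

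Between neighbouring stages LEPR had log2 fold changes of 1.69 (SE 1.31) at 120 against 60 days, -2.42 (SE 1.36) at 180 against 120 days and 3.11 (SE 1.39) at 240 against 180 days, with adjusted p from 0.501 to 0.636. The last 2 steps were -0.39 (SE 1.26, adjusted p 1) at 300 against 240 days and 1.73 (SE 1.29, adjusted p 0.737) at 360 against 300 days. The line over age was 3.07 per 300 days (SE 1.10, adjusted p 0.0702), 60 days against the rest was -1.82 (SE 1.14, adjusted p 0.362), and any difference among stages had an adjusted p of 0.192. The standard errors of the 11 log2 changes were 1.10 to 1.41 for LEPR and 0.530 to 0.822 for LEP.

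**Figure D2:**
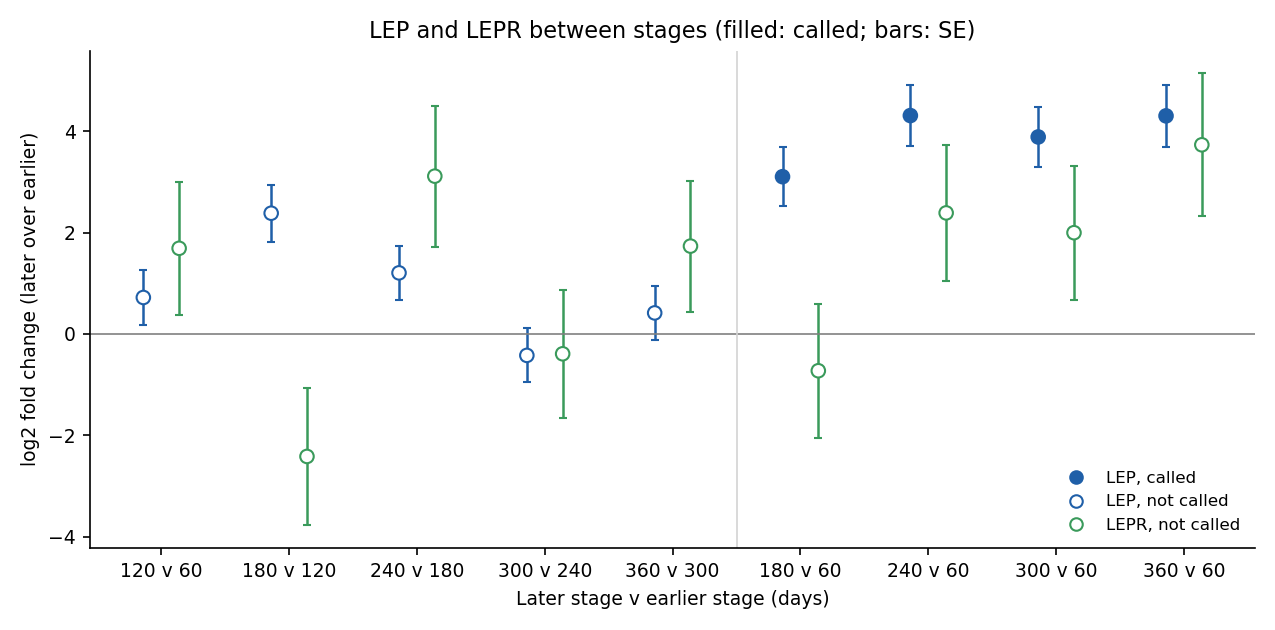
Log2 fold change of the later over the earlier stage for LEP (blue) and LEPR (green) in 9 comparisons, with bars of 1 SE from the edgeR fit and filled points for calls. The 4 filled points are LEP at 180, 240, 300 and 360 days against 60 days, from 3.10 to 4.31, and no LEPR point is filled.

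Ligand and receptor transcripts were also set against each other within each library, in FPKM, which is per length of the assembled transcripts. The length implied by counts and FPKM was 19.35 kb for LEP, more than the 17205 bases of its whole RefSeq gene. It was 12.68 kb for LEPR, and the median over protein-coding loci tested was 6.933 kb. The size of the ratios thus depends on the assembly. At 60 days the ratio of LEP to LEPR was 38.2 and 4.72 in replicates 2 and 3, and replicate 1 gave none because its LEPR was 0. At 120 days it was 1.94, 12.3 and 6.10, and at 180 days 189.5, 170 and 184.5. In the older stages it was 21.7, 194 and 279 at 240 days, 33.3, 33.3 and 217 at 300 days and 125, 20.7 and 12.6 at 360 days. LEP was therefore higher than LEPR in FPKM in all 17 libraries with a ratio. The 3 pigs of 180 days were alike in the ratio while pigs of later stages were not.

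The ratio at 60 days was not shown to differ from that of the other stages. The mean log2 ratio of 60 days minus that of the other 5 stages was -1.77 (2 against 15 libraries, exact permutation test, two-sided, p = 0.316), with replicate 1 of 60 days left out of the test. The smallest p this design allows is 0.00735. With 0.1 FPKM added to both genes all 18 libraries entered, and the difference was -1.90 (exact permutation p = 0.0895).

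Over the 18 libraries the levels of LEP and LEPR on the log2(FPKM + 0.1) scale had a Pearson r of 0.37 (permutation p = 0.13, 100000 resamples) and a Spearman rho of 0.41 (permutation p = 0.0919). With the 2 libraries left out whose LEP lay farthest from its median, both of young pigs, r was 0.38 (permutation p = 0.145), and with stage means removed it was 0.31 (permutation p = 0.21). This was the only relation across libraries that was tested. The 4 libraries above 0.5 FPKM of LEPR had 16.6 to 24.1 FPKM of LEP, but other libraries with 15.01 to 18.3 FPKM of LEP had 0.120 FPKM or less of LEPR. Without the 7 libraries low in Y-linked genes r was 0.35 (n = 11, permutation p = 0.291).

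**Figure D3:**
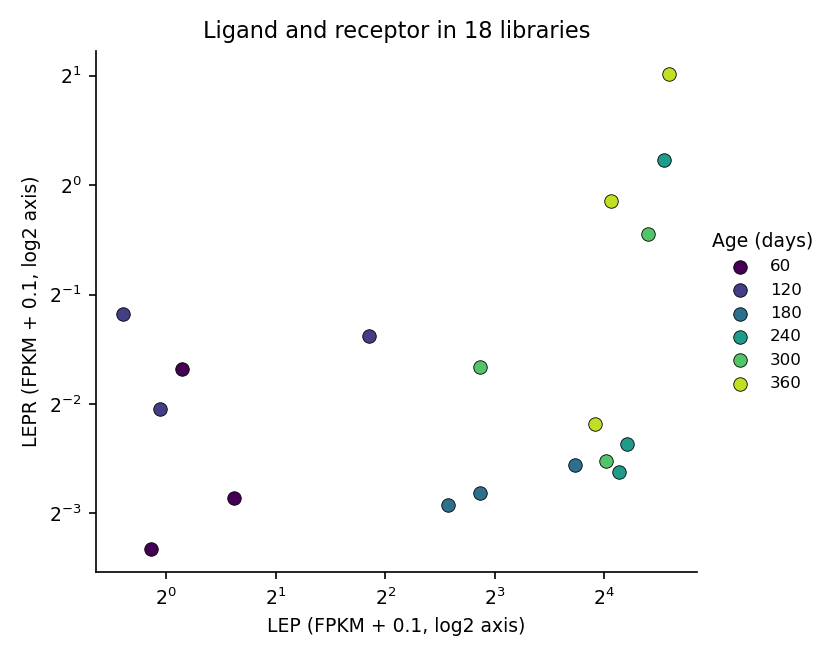
LEPR against LEP in 18 libraries, both as FPKM plus 0.1 on log2 axes, with 1 point per library coloured by age in days. The points at the right split into libraries with high LEPR (replicate 1 of 240 days at 1.07, replicate 3 of 360 days at 1.91 FPKM) and libraries with 0.120 FPKM or less, and r over all 18 is 0.37.

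Genes that handle the receptor protein gave no call between stages. LEPROT had stage means of 25.6, 23.8, 31.1, 31.3, 28.3 and 30.4 FPKM from 60 to 360 days, and its correlation with its neighbour LEPR was 0.056 over 18 libraries. All 7 genes of this list were tested, and at 360 against 60 days all 7 had a log2 fold change above 0, with a median of 0.35 beside -0.01 over all loci. RNF41, a ubiquitin ligase that sorts the leptin receptor, had a log2 fold change of 0.67 at 360 against 60 days (SE 0.153, adjusted p 0.0128), under the size asked of a call. CLU, a secreted chaperone able to bind leptin, lay between 2.34 and 46.4 FPKM, and its highest values were in the 2 libraries with liver transcripts. LRP2, which takes up leptin in kidney and brain barrier cells, shared its locus with ABCB11 and was the only one called for any difference among stages. That call was lost in 20 of 28 other settings, and its locus was highest in the same 2 libraries (2.00 and 1.06 FPKM). The part of liver transcripts in both was not tested.

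SOCS3, the inhibitor induced by leptin and other cytokines, was the gene of the signalling list called between stages. It had 2.44, 2.61 and 2.60 FPKM at 60 days, 3.36, 5.27 and 3.46 at 120 days and 9.68, 2.67 and 7.33 at 180 days. It had 9.65, 8.20 and 13.3 FPKM at 240 days, 9.77, 5.07 and 24.8 at 300 days and 15.6, 24.0 and 38.2 at 360 days. Every library from 120 days on lay above all 3 of 60 days, and the means increased at each step.

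At 360 against 60 days the log2 fold change of SOCS3 was 3.56 (SE 0.563, adjusted p 0.00173), and along age it was 3.40 per 300 days (SE 0.405). It was also called at 240 days (2.15, adjusted p 0.0357) and 300 days (2.48, adjusted p 0.0299) against 60 days, calls that were each lost in 8 of 29 other settings. The symbol of SOCS3 was matched through its Ensembl identifier. Replicate 3 of 360 days, the library with the most LEP, LEPR and SOCS3, was also the one with the most counts in its 10 largest loci. Without it SOCS3 at 360 against 60 days was still called (3.08, adjusted p 0.00797), and without the libraries low in Y-linked genes it was not (3.55, adjusted p 0.0656).

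The kinase JAK2 and the transcription factor STAT3 were not called. JAK2 stayed between 2.54 and 3.44 FPKM in all libraries, and STAT3 between 3.32 and 5.44 FPKM. Of 27 listed genes 25 were tested, SOCS3 was the 1 called higher at 240, 300 and 360 days against 60 days, where 2%, 1.08% and 5.11% of all loci were called, and none was called lower. The median log2 fold change of the 25 at 360 against 60 days was 0.04, beside -0.01 over all loci. PTPN1, a phosphatase that removes phosphate from JAK2, had 0.60 (SE 0.143, adjusted p 0.0157) and PTPN11, a phosphatase that binds the receptor, had 0.54 (SE 0.151, adjusted p 0.0327). PTPN2, a related phosphatase, had -0.70 (SE 0.151, adjusted p 0.00994), and IRS2, an adaptor shared with insulin, 0.59 (SE 0.168, adjusted p 0.0331), all at 360 against 60 days and under the size asked of a call. These 4 and SOCS3 were called for any difference among stages, 5 of 25 genes, where 6.57% of all loci were called. Of 28 other settings that call was lost in 22 for PTPN1, 12 for PTPN11, 10 for PTPN2, 9 for IRS2 and 2 for SOCS3.

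Among the 12 transcription factors known to act on the leptin gene, FOSL2, an AP-1 factor reported to bind it in mice, was the 1 called at 360 against 60 days, where 5.11% of all loci were called. It had 5.27, 4.65 and 5.73 FPKM at 60 days, 5.77, 6.86 and 9.13 at 120 days and 7.47, 8.45 and 12.9 at 180 days. Later it had 10.9, 12.0 and 10.4 FPKM at 240 days, 9.04, 13.8 and 16.4 at 300 days and 17.6, 17.1 and 17.3 at 360 days. All 15 later libraries lay above the 3 of 60 days, and the 3 of 360 days above all others. Its log2 fold change at 360 against 60 days was 1.92 (SE 0.235, adjusted p 0.000395), called in all 29 other settings. CEBPA, an activator of leptin and of fat cell genes in general, was between 31.5 and 64.9 FPKM and PPARG, the central factor of fat cells, between 4.19 and 9.43 FPKM, neither of them called. FOSL2, CEBPB and RXRA were called for any difference among stages, and of 28 other settings that call was lost in 1 for FOSL2 and in 7 each for CEBPB and RXRA. That pair had stage means of 32.1 to 52.7 FPKM for CEBPB and 5.61 to 8.71 FPKM for RXRA.

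Of 12 listed inputs to leptin output 11 were tested. TSHR, the thyrotropin receptor, which fat cells carry, fell by 1.51 on the log2 scale at 360 against 60 days (SE 0.278, adjusted p 0.00443). It was the 1 of the 11 called there, where 5.11% of all loci were called. It had 0.575, 0.817 and 0.563 FPKM at 360 days, against 2.48, 2.05 and 1.79 FPKM at 60 days, with no overlap. Without the libraries low in Y-linked genes it was not called (-1.45, adjusted p 0.127). HSD11B1, which makes active glucocorticoid, was called higher at 240 against 60 days (1.23, adjusted p 0.0316), the 1 of the 11 called there beside 2% of all loci. Without the libraries high in muscle or liver markers it was not called (0.89, adjusted p 0.103). At 240 against 60 days the glucose carrier SLC2A4 had 1.07 (adjusted p 0.0557) and the insulin receptor INSR 0.06 (adjusted p 0.881), neither of them called.

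Other secreted products of fat cells were measured beside LEP. ADIPOQ, the gene of adiponectin, had 104, 215 and 177 FPKM at 360 days, against 277, 226 and 260 FPKM at 60 days, and was not called (-0.43, SE 0.279, adjusted p 0.33). RARRES2, the gene of chemerin, was called at 360 against 60 days (1.16, adjusted p 0.0424), a call lost in 14 of 29 other settings.

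Of the receptors related to LEPR 10 were tested. CSF3R, the receptor of granulocyte colony-stimulating factor, was called higher at 360 against 60 days (2.11, SE 0.492, adjusted p 0.0143), 1 of the 10 where 5.11% of all loci were called, and lost that call in 6 of 29 other settings. Macrophage markers, of which 3 of 7 were called higher in that comparison beside 5.11% of all loci, summed to between 29.5 and 77.2 FPKM over the libraries, and their part was not tested. IL6ST, the signal chain gp130 shared by the interleukin-6 group, stayed between 17.5 and 26.4 FPKM. IL12RB2 fell by 1.198 on the log2 scale along age (adjusted p 0.0498), a call lost in 21 of 28 other settings, and IL11RA was called only for any difference among stages, with stage means of 2.45 to 3.21 FPKM from 120 days on, against 4.54 FPKM at 60 days.

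**Figure D4:**
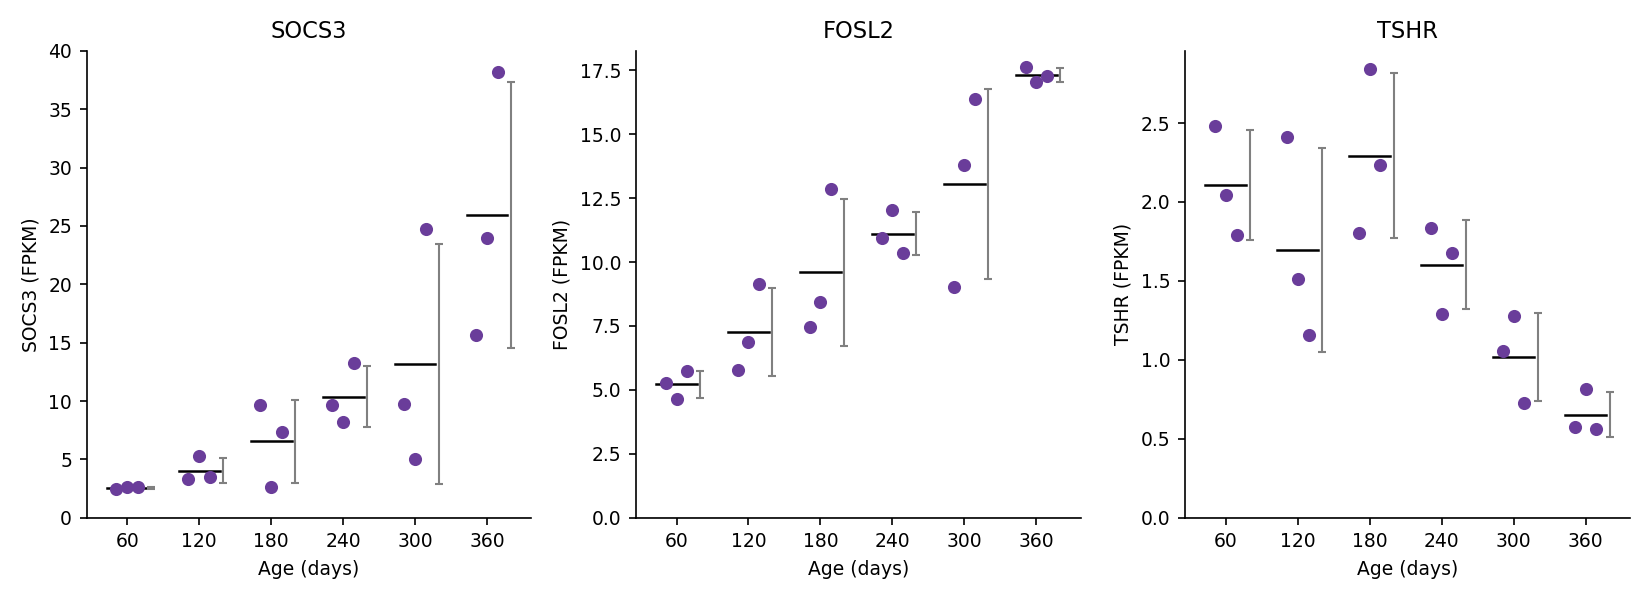
FPKM of SOCS3, FOSL2 and TSHR in each of 18 libraries by age in days, with stage means as lines and SD of 3 libraries as grey bars. SOCS3 reaches 38.2 and FOSL2 17.6 FPKM at 360 days, while TSHR lies at or below 0.817 FPKM there.

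The loci whose levels ran most like those of LEP were ranked by Pearson r on log2(FPKM + 0.1) over the 18 libraries, among 8985 loci with a symbol and a mean of at least 1 FPKM in some stage. The nearest were AKAP12 (r = 0.96), a scaffold of protein kinase A, TTC7B (0.94), ARHGAP35 (0.94) and CRIM1 (0.92). KIAA0930, NEK9, CRYAB, TFCP2L1, YBX3 and the locus shared by PLEKHA2 and HTRA4 followed, with r from 0.91 to 0.92. CRYAB, a small heat shock protein, had stage means of 17.9, 24.0, 63.9, 144.7, 83.5 and 74.6 FPKM from 60 to 360 days. With stage means removed the r of these 10 with LEP was 0.32 to 0.75, lowest for NEK9 and highest for CRIM1. They were picked by their r over these same libraries, so this r is no separate support.

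The most opposite were IFNGR1 (r = -0.91), a chain of the interferon gamma receptor, REPS2 (-0.91), TMEM131 (-0.90), HCAR1 (-0.89) and COL5A2 (-0.89). HCAR1, the lactate receptor through which fat cells hold back lipolysis, had stage means of 11.2, 6.41, 3.61, 2.23, 3.89 and 2.35 FPKM from 60 to 360 days. COL5A2, a fibrillar collagen chain, had 27.4 FPKM at 360 days, against 55.7 FPKM at 60 days, on average. LEPR stood at rank 1424 in the list of LEP.

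The list of LEPR was led by CRISPLD2 (r = 0.84), a secreted protein, CPXM2 (0.84), an enzyme-like member of the carboxypeptidases, and DIRAS3 (0.81), a small GTPase. CAVIN3, CCN4, PRELP, FIBIN, IKBKB, LTBP2 and THBS1 followed, with r from 0.79 to 0.80. THBS1, the matrix protein thrombospondin-1, had 168.9 FPKM at 360 days, against 49.1 FPKM at 60 days, on average, with 256 FPKM in replicate 1 of 240 days and 292 FPKM in replicate 3 of 360 days, the same 2 libraries that were highest in LEPR. With stage means removed the r of these 10 with LEPR was 0.64 to 0.83. They were picked by their r over these same libraries, so neither this r nor the shared high libraries is separate support. The most opposite were BICD1 (-0.81), CSNK1G3 (-0.80), the locus shared by ITGAE and NCBP3 (-0.79), PPP2R2A (-0.79) and POGLUT1 (-0.79). LEP stood at rank 970 of 8986 in this list, and no locus was in both lists of 10.

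**Figure D5:**
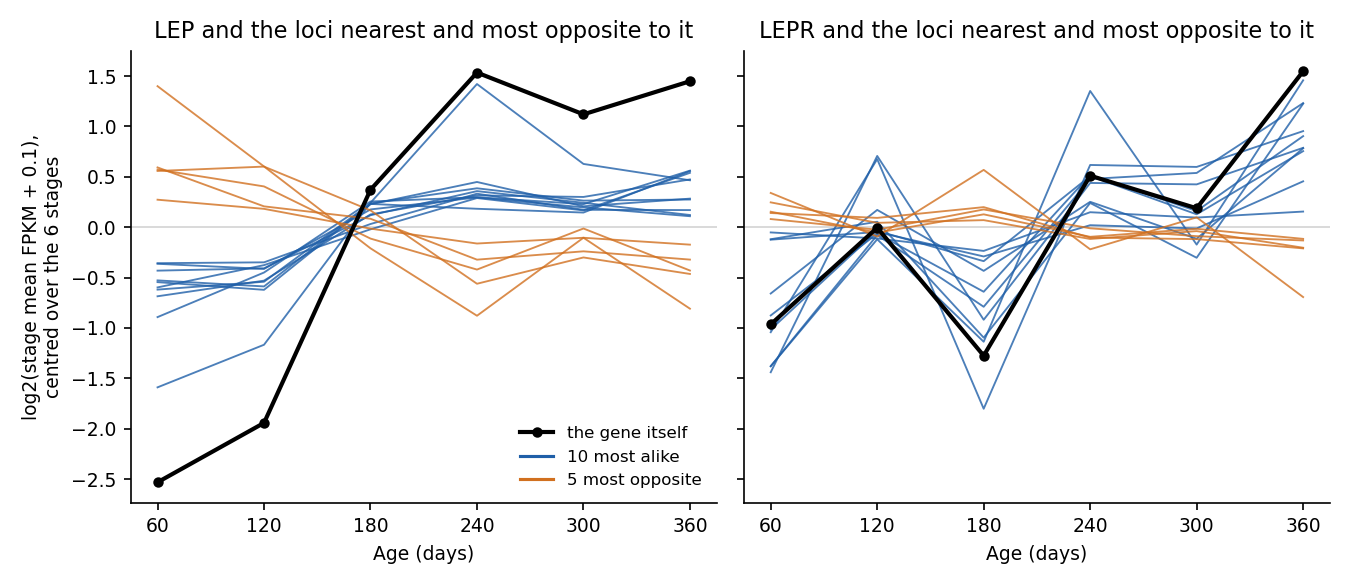
Stage means on the log2(FPKM + 0.1) scale, centred over the 6 stages, for LEP (left) and LEPR (right) in black, the 10 loci most alike in blue and the 5 most opposite in orange, by age in days. LEP climbs between 120 and 240 days and its nearest loci with it, while LEPR is lowest at 180 days and highest at 360 days.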

How the data were processed

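RNA without ribosomal RNA was sequenced in pairs of 150 bases in 18 libraries of 74077094 to 84236689 counts. Trimming was done by the authors with Cutadapt, mapping with Hisat2 (build Sscrofa11.1, Ensembl release 96) and assembly with StringTie, which gave the deposited FPKM values. The deposited counts are whole and without scaling, and how the authors took them is not given in the sources used here. LEP, LEPR and the gene lists were chosen with earlier results of these data known.

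All 18 libraries entered 1 quasi-likelihood fit with 6 stage groups and TMM scaling (edgeR 4.0.16, R 4.3.3), on 19470 of 27883 loci, with Benjamini-Hochberg adjustment. Standard errors were taken as the size of the log2 change over the root of its F value. The common biological coefficient of variation was 0.340, against 0.450 for LEP and 1.06 for LEPR. The fit along age treats full sibs as independent, so its p can be too small. The fit was tested on simulated data. Alternatives used DESeq2 1.42.0, limma 3.58.1, other filters, a replicate block, the Y-linked level, and each library left out in turn. Correlations and permutation tests used numpy 2.4.6, with ranks from scipy 1.17.1, in Python 3.11.15. Genes named beside LEP and LEPR are the called members of fixed lists, with some uncalled members for context chosen after their values were seen, the 10 loci most alike and 5 most opposite, and the neighbouring loci. The plan gave the ratio test 18 libraries, but it could use 17 because 1 value of LEPR is 0. List genes without a symbol in the table were matched through Ensembl identifiers. Replicate numbers did not pair the libraries, with a mean residual correlation of 0.01 over 45 pairs of equal number and -0.01 over 90 of different number. RefSeq coordinates are those of Sscrofa11.1. Some results of the list of secreted products are not reported here.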

Additional observations from a re-analysis of the deposited data

How the results depend on the processing

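The calls of LEP at 240, 300 and 360 days against 60 days, and for any difference among stages, stood in every alternative run. The call at 180 against 60 days was lost when the level of Y-linked genes was a covariate (2.93) and with the libraries of the compared stages alone (3.12). Its values with each library left out ran from 2.68 to 3.35. Without the libraries low in Y-linked genes 2 calls of LEP were lost, 60 days against the rest (-2.71) and the line over age (4.80), and LEP at 120 against 60 days reversed (-0.81), as it did without the 4 libraries high in muscle or liver markers (-0.41), a set chosen after the data were seen. With each library left out that comparison ran from -0.42 to 1.10. LEP at 180 against 120 days was called by DESeq2 (2.38) and without those 4 libraries (3.09), and ran from 1.95 to 3.52 with each library left out. LEPR at 360 against 60 days was called by DESeq2 (3.75). LEPR at 300 against 240 days reversed with limma on log2(FPKM + 0.1), to 0.0399, and ran from -1.47 to 1.95 with each library left out. LEPR at 180 against 60 days ran from -1.31 to 1.41. The cause of these changes was not tested. Where libraries were left out, the fit also had fewer of them, and that part was not tested either.

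With the replicate block, 60 days against the rest was -3.27 for LEP and no call of LEP or LEPR changed, while 5 loci were called at 120 against 60 days, against 45 without the block. The closest partner of a library carried the same number in 7 of 18 cases. Counts of calls over all loci moved more: DESeq2 called 333 at 120 against 60 days, 382, 784 and 589 at 180, 240 and 300 against 60 days, and 4080 for any difference, and limma on log2(FPKM + 1) called 371 at 360 against 60 days. Without the libraries low in Y-linked genes 114 loci were called at 360 against 60 days, against 995 with all libraries. LEPR had at most 324 counts in 14 of 18 libraries, and its biological coefficient of variation between pigs was 1.06, against 0.450 for LEP.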
